A study of Mus musculus with 4 samples.

Results

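Intronic SMAD4 regions beyond 10 kb are stretches of the mouse genome that were bound by SMAD4 in both replicates of alveolar macrophages (AMs), that lay inside an intron, and that were far from any known transcription start site (TSS). Overlapping peaks (1 bp or more) of the 2 deposited lists were joined, and a joined region was kept when its midpoint lay in an intron of a curated RefSeq transcript and more than 10 kb from the nearest TSS. Midpoints in exons, in promoters (from 1 kb before to 100 bp after a TSS) or around gene ends (from 100 bp before to 1 kb after) were left out. Of 10964 regions shared by both replicates, 3577 met the rule (32.6%, exact 95% binomial interval 31.7 to 33.5). Such intervals cover counting error only, because regions are not replicates.

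AMs were collected by bronchoalveolar lavage from 9-week-old wild-type C57BL/6J mice and sorted by flow cytometry. SMAD4 was immunoprecipitated with a combination of antibodies, and libraries were made by HT-ChIPmentation, in which adapters are inserted by a transposase into the bead-bound chromatin. There were 2 SMAD4 samples, which were analysed here as peak lists, and 2 input samples made without antibody, which served the authors as the control for peak calling. Every sample was wild type, and without another condition the data allow comparisons between replicates, between bound and neighbouring sequence, and between classes of regions. Nothing in the labels says whether the 2 SMAD4 samples came from separate animals, and their spread may therefore be technical. No RNA data were analysed here, so that markers of AMs could not be checked and the expression of any gene named below is unknown here.

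SMAD4 is the common partner of the receptor-activated SMAD proteins. After TGFβ or BMP binds its receptors, SMAD complexes enter the nucleus, where they bind short GTCT-type or GC-rich sequences with low affinity, usually next to transcription factors that define the cell type. In macrophages those factors include PU.1 and the C/EBP, RUNX and AP-1 families. TGFβ is required for the development and maintenance of AMs. Introns far from a TSS often hold enhancers, and an enhancer in an intron can act on its host gene or on another gene. The host gene of a region is therefore a position and not a target.

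Sequences of 15 regions show examples of short strings around the summits of far intronic regions. They are the 201 bases centred on the mean of both summits, from the plus strand of mm10 (GRCm38, RefSeq). They were taken from the strongest regions and from regions in genes of AMs, macrophage transcription factors and a phagocytic receptor. Only windows with a marked string were eligible, so that the presence of a string in each window is not a result. The capitals mark copies, on either strand, of the 5 strings with the clearest excess at summits: CEBP (TTNNNNAA, with the N in order a purine, a pyrimidine, a purine and a pyrimidine), PU.1 (GAGGAAGT), ELF5-type (CAGGAAGT), AP-1 (TGAGTCA or TGACTCA) and RUNX (TGTGGTT or TGTGGTC).
1700112H15Rik, chr1:184536465-184536665: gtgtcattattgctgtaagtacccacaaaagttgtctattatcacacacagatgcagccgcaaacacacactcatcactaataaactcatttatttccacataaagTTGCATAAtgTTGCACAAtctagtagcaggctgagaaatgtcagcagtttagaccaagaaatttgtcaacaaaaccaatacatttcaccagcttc
Gda, chr19:21461330-21461530: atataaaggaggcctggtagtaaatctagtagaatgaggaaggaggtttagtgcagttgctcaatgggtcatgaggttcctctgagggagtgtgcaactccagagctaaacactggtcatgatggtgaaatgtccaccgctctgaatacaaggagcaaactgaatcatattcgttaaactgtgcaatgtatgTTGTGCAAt
Nt5c2, chr19:46901496-46901696: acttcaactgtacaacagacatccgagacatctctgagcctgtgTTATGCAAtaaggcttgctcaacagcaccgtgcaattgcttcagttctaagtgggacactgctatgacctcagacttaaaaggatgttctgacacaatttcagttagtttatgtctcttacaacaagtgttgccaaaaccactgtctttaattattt
Snrk, chr9:122138751-122138951: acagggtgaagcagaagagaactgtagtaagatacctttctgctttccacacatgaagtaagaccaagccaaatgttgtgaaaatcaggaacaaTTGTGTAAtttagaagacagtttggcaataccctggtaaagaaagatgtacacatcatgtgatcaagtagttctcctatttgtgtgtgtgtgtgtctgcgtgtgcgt
Borcs5, chr6:134700902-134701102: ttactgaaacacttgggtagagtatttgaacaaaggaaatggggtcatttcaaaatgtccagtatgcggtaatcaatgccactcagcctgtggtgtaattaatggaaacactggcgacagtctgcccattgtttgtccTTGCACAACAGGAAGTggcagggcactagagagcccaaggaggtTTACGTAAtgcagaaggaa
Adgb, chr10:10449121-10449321: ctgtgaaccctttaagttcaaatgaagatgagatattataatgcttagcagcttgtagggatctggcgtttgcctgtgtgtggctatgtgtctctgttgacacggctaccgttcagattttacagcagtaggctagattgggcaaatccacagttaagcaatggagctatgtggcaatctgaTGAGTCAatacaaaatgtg
Scp2, chr4:108074516-108074716: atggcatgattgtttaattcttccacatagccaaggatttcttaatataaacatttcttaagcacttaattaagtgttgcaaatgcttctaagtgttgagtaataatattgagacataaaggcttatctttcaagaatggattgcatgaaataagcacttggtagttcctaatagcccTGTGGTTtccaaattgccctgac
Vmp1, chr11:86603833-86604033: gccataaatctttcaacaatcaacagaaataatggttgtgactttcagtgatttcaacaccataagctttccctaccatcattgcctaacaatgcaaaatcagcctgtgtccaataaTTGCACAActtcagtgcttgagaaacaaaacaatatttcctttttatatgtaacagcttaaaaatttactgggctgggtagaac
Calcrl, chr2:84358777-84358977: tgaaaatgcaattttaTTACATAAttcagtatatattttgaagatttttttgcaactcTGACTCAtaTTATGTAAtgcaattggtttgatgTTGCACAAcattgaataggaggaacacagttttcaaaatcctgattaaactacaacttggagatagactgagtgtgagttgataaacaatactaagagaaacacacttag
Lrrc40, chr3:158062280-158062480: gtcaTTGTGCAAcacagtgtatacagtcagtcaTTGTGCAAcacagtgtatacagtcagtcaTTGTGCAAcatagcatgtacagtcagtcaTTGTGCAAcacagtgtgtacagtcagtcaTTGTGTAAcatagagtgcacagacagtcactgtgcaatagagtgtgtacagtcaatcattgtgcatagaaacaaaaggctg
Pparg, chr6:115432599-115432799: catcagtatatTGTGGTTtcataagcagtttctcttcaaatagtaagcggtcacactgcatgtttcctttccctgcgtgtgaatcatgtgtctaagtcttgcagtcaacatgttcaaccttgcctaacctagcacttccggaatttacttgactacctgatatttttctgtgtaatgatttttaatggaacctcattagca
Cd36, chr5:17876761-17876961: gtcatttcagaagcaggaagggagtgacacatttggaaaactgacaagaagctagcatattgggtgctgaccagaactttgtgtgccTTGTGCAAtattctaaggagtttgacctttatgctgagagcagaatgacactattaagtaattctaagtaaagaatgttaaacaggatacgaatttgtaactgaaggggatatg
Olr1, chr6:129494972-129495172: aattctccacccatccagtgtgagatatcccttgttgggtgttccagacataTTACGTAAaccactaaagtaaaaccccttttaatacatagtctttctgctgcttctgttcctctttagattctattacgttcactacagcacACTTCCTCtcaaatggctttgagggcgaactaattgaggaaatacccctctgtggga
Runx2, chr17:44653186-44653386: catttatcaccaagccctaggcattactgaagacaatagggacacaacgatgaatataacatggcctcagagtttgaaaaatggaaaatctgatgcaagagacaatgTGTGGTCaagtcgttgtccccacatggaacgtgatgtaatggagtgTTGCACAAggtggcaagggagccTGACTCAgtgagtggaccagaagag
Mertk, chr2:128719436-128719636: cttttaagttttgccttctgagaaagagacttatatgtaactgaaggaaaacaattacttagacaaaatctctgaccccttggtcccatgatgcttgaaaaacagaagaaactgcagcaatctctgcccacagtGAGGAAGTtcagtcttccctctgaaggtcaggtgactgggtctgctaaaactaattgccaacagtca

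A CEBP string was the most frequent of the 5 strings in these chosen windows. It was so over all 3577 regions too (23.3%), of which 1757 held none of the 5. The window in 1700112H15Rik held 2 copies separated by a pair of bases, and the window in Calcrl held 3 copies and an AP-1 string. In Borcs5 a CEBP string (chr6:134701040-134701047) ended at the base before an ELF5-type string (chr6:134701048-134701055). The Lrrc40 window was built of a short tandem repeat that carried the string 5 times. In Gda, Adgb, Scp2 and Pparg the marked string lay near an edge of the window, away from its centre. No PU.1 string occurred in the windows of the 25 strongest regions, and the Olr1 and Mertk windows are shown because they held one.

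The enrichment of far intronic regions ran over a wide range and was ranked similarly by both replicates. Fold enrichment, the fragments stacked at the summit plus 1 over the control level plus 1, had a median of 6.82 in replicate 1 (interquartile range 5.20 to 9.75, highest 52.3) and 9.48 in replicate 2 (6.77 to 14.0, highest 79.9). The mean of both medians was 8.15 ± 1.88 (SD, n = 2). The median summit held 21 fragments in each replicate, from 10 to 160 in replicate 1 and from 7 to 176 in replicate 2, so that most folds rest on few fragments. The higher folds of replicate 2 go with a lower genome-wide control level of 1.22 fragments, against 2.08 in replicate 1, and this was the level at 80.8% of the regions in each replicate. Across the 3577 regions the folds of the replicates had a Spearman rho of 0.778, as a description, since regions of a library share its depth. Regions were a median of 442 bp wide (321 to 610), and the summits of the replicates lay a median of 50 bp apart. At least 5-fold enrichment in both replicates was found for 2728 regions (76.3%, 74.8 to 77.7).

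**Figure D1:**
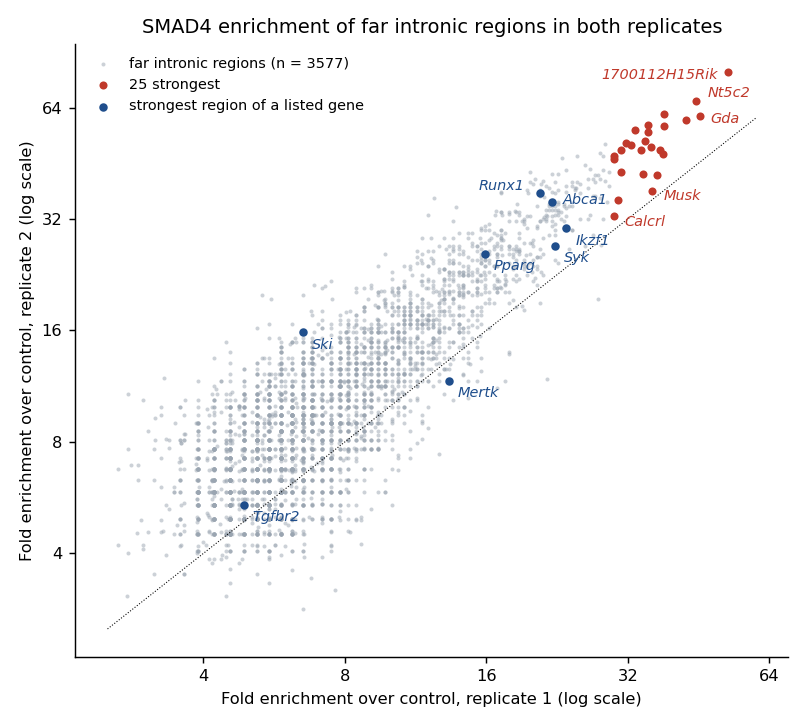
Fold enrichment over control of each far intronic region in replicate 1 (x axis) and replicate 2 (y axis), both on log scales, with the 25 strongest regions in red, the strongest region of 8 listed genes in blue, and a dotted line of equal folds. The red points lie between 29.9 and 52.3 in replicate 1 and between 32.5 and 79.9 in replicate 2, and most points lie above the line.

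The strongest far intronic regions lay in genes of very different function. By the smaller fold of the replicates, first was a region in intron 2 of the Riken-named gene 1700112H15Rik (chr1:184535817-184537063, 52.3-fold in replicate 1 and 79.9-fold in replicate 2, with 160 and 176 fragments). It was followed by regions in Gda, which encodes guanine deaminase (chr19:21460860-21462221, 45.5-fold and 60.9-fold), and Nt5c2, a purine nucleotidase (chr19:46900995-46902244, 44.8-fold and 66.8-fold). A region in intron 12 of Naip2, an innate receptor for bacterial secretion proteins from a family of closely similar copies, where the placement of reads is less certain, reached 42.6-fold and 59.1-fold (chr13:100152339-100153443). Its nearest TSS was that of Smn1, 28036 bp away. These values chose the regions and are given as a description. The 25 strongest regions were 824 to 1590 bp wide, and 5 of them lay in first introns. A CEBP string was present in the summit window of 17 of the 25, an AP-1 string in 4, a RUNX string in 4 and an ETS string (PU.1 or ELF5-type) in 2, and 3 held none of the 5 strings.

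The region in Borcs5, a subunit of a complex that positions lysosomes, had folds of 38.0 and 47.8, and that in Scp2, a sterol carrier, had folds of 37.4 and 49.2. The region in Marchf1, a ubiquitin ligase that lowers surface MHC class II, had folds of 35.4 and 55.0. In Alpk1, a kinase that senses a bacterial sugar, folds were 35.4 and 57.3. The regions in Musk, the receptor kinase of the neuromuscular junction, and Itga8, an integrin subunit, had folds of 36.1 and 38.0, and 34.4 and 42.4. Further regions among the 25 lay in Adgb, Snrk, Znrf1, Chsy1, Luzp1, Gpr141, Vmp1, Slx4ip, Rbpms, Usp32, Nsmce2, Calcrl, Lpp and Niban1.

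The rule chose regions by position. Close to its distance limit, the 261 regions between 10 and 12 kb had median folds of 6.29 and 8.57, and the 272 intronic regions on the nearer side of the limit, between 8 and 10 kb, had 6.94 and 9.67. With predicted transcripts included in the annotation, 714 of the 3577 regions came within 10 kb of a TSS (20%, 18.7 to 21.3), and 111 came within 1 kb (3.10%).

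To determine how far the individual replicates agreed in far introns, the share of peaks with an overlapping partner in the other list was computed. In replicate 1, 3697 of 5225 far intronic peaks had one (70.8%, 69.5 to 72.0), beside 69.4% of all peaks of that list. In replicate 2, 3675 of 5882 had one (62.5%, 61.2 to 63.7), beside 59.2% of all peaks. The mean share was 66.6% ± 5.85 (SD, n = 2). The share rose with enrichment, from 37.1% in the lowest of 4 groups by fold to all 1272 peaks of the highest group in replicate 1, and from 27.2% to 99.5% in replicate 2. Peaks without a partner had median folds of 4.54 and 5.41, with 13 and 11 fragments at the median summit. The comparison with other classes depended on the replicate. Far intronic peaks had a partner less often than promoter peaks in replicate 1 (difference −15.3 percentage points, Newcombe 95% interval −17.8 to −12.5) and more often in replicate 2 (15 points, 12.2 to 17.8). Compared with intergenic peaks at 10 to 100 kb, the differences were −4.12 points (−5.97 to −2.26) in replicate 1 and −0.853 (−2.74 to 1.04) in replicate 2.

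Far introns were occupied at a lower density than sequence near a TSS, and the density fell further with distance. The far introns of the annotation amount to 751 Mb, or 29.3% of the bases, and held 4.76 shared regions per Mb. Their share of all shared regions (32.6%) was 1.11 times their share of the bases. Introns within 10 kb of a TSS held 9 per Mb and promoters 22.7 per Mb. Within far introns, there were 7.26 regions per Mb at 10 to 20 kb from the nearest TSS, 5.82 at 20 to 50 kb, 4.89 at 50 to 100 kb and 1.87 beyond 100 kb. Genes with over 500 kb of far intron held 1.35 per Mb, and the part of gene length in the fall with distance was not tested. The median distance to a TSS was 31830 bp (interquartile range 18495 to 61808), and 401 lay more than 100 kb away. The most distant was in Lrp1b, 1159767 bp from the nearest TSS. Enrichment was level along this gradient. The median fold in replicate 1 was 6.82 in all 4 distance classes, and in replicate 2 it was 9.48 in the first 3 and 9.35 in the last. The share of regions with a CEBP string also stayed level, from 22.7% at 10 to 20 kb (20.2 to 25.4) to 24.2% beyond 100 kb (20.1 to 28.7).

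Occupancy also varied with the order of the introns. First introns held 1066 regions (29.8%, 28.3 to 31.3), although they make up 20% of far intronic bases, a density of 7.10 per Mb. Second introns held 628 (17.6%, 16.3 to 18.8) in 15.9% of the bases, and later introns held 1883 (52.6%, 51 to 54.3) in 64.1%. When each region was assigned to the transcript with the shortest span, first introns held 32.3% of the regions and 21.8% of the bases. Median folds differed little between first introns (6.53 and 9.48) and later introns (6.82 and 9.48). Close to exons, 632 regions (17.7%, 16.4 to 19) had a midpoint within 1 kb of an exon, a zone with 20.6% of far intronic bases.

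**Figure D2:**
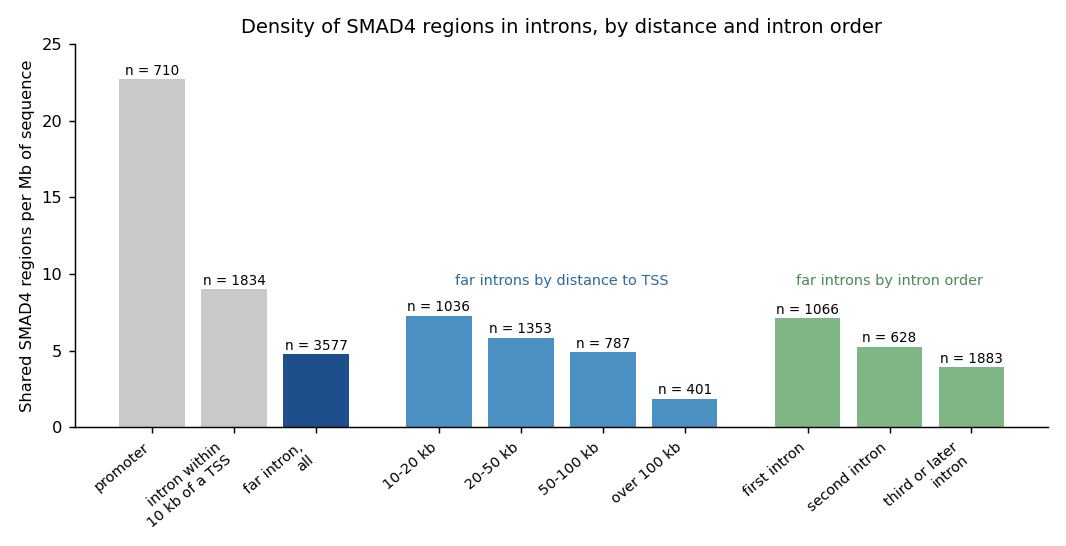
Shared SMAD4 regions per Mb of sequence (y axis) in promoters and introns (grey and dark blue), in far introns by distance to the nearest TSS (light blue) and by intron order (green), with the number of regions above each bar. Density fell from 7.26 per Mb at 10 to 20 kb to 1.87 beyond 100 kb, and from 7.10 in first introns to 3.91 in later introns.

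The sequences of far intronic regions had a GC content close to that of far introns as a whole (43.0% against 41.9%). Repeats were rare: 3.83% of summit windows (3.23 to 4.51) were masked as repeats over at least 50% of their length, compared with 21.8% of all 3737218 tiled windows of far introns. Reads of low mapping quality had been removed before peak calling, and the part of this filter in the low repeat share was not tested.

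To ask which short sequences marked the summits, 18 consensus strings were counted on both strands in the summit window of each region and in a flank window of the same width centred 1 kb to the right. The paper had already reported motifs of CEBP, PU.1, ELF5, PPARs and bHLHE41 as enriched in its SMAD4 peaks. An excess of such strings here is therefore not an independent finding. CEBP strings were found in 833 summit windows (23.3%, 21.9 to 24.7) and 208 flank windows (5.81%), a ratio of 4 (adjusted p = 1.28e-99, exact McNemar test with Benjamini-Hochberg adjustment over the 18 strings). The p-values of the strings cover counting error only, because regions of a library are not independent replicates. All tiled windows of far introns held a CEBP string at a rate of 5.83%. PU.1 strings were less common and had the highest ratio of the strings that passed the test, at 284 summit windows (7.94%) against 49 flank windows (1.37%, tiles 1.16%), a ratio of 5.80. The related ELF5-type string, which other ETS factors also bind, was found in 5.62% of summit windows and 1.93% of flank windows (tiles 1.37%). RUNX strings were found in 16.9% against 7.8% (tiles 7.40%), and AP-1 strings in 8.72% against 4.08% (tiles 3.26%). Each of these 5 strings passed the test in all 7 alternative settings.

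Exact copies of strings that SMAD proteins themselves bind showed no clear excess over the flanks. GTCTGG was in 396 summit windows (11.1%, 10.1 to 12.1) and 366 flank windows (10.2%, 9.26 to 11.3), a ratio of 1.08 (adjusted p = 0.357, exact McNemar test), and 9.21% of tiled windows held it. The GC-rich string GGCGC was in 142 and 141 windows (tiles 3.20%). The palindrome GTCTAGAC was rare, with 14 summit and 4 flank windows (tiles 0.164%), and did not pass the test (adjusted p = 0.0505, exact McNemar test), although it did so in 4 of the 7 alternative settings. GTCTGG passed in 1 of the 7, with windows of 200 bp each side and a ratio of 1.13. These counts describe the letters in the windows and say nothing of whether SMAD4 touched the DNA there. The paper's HOMER motif search of its SMAD4 peaks reported the motif of the factor itself as enriched. That search used another method and was not limited to far introns, so the counts here are not directly comparable with it.

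Of the other strings, a PU.1-IRF composite (GGAA and GAAA spaced by a pair of bases, which can overlap the PU.1 and ELF5-type strings) was in 4% of summit windows against 1.82% of flank windows (tiles 2.11%). The nuclear receptor half-site AGGTCA was in 15.2% against 11.5% (tiles 11.4%), and the E-box CACGTG in 3.77% against 2.46% (tiles 2.13%). STAT5 (TTCNNNGAA) was in 8.47% against 6.99% (tiles 7.03%). It passed the test (adjusted p = 0.0403, exact McNemar test), but not with the summits of either replicate alone, where its ratio was 1.17 and 1.16. The TEAD string GGAATG was less frequent at summits (8.50%) than in flanks (11.1%, tiles 10.7%), a ratio of 0.766. In all, 9 strings were more frequent at summits and 1 was less frequent. The strings of RBPJ (GTGGGAA), a MAF half-site (TGCTGAC), an NKX2-1-type string (CACTTGA), DR1 and CTCF did not pass the test, with tiled rates of 3.60%, 2.84%, 2.94%, 0.0383% and 0.0958%. DR1 and CTCF were too rare to compare, with 2 and 5 summit windows.

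**Figure D3:**
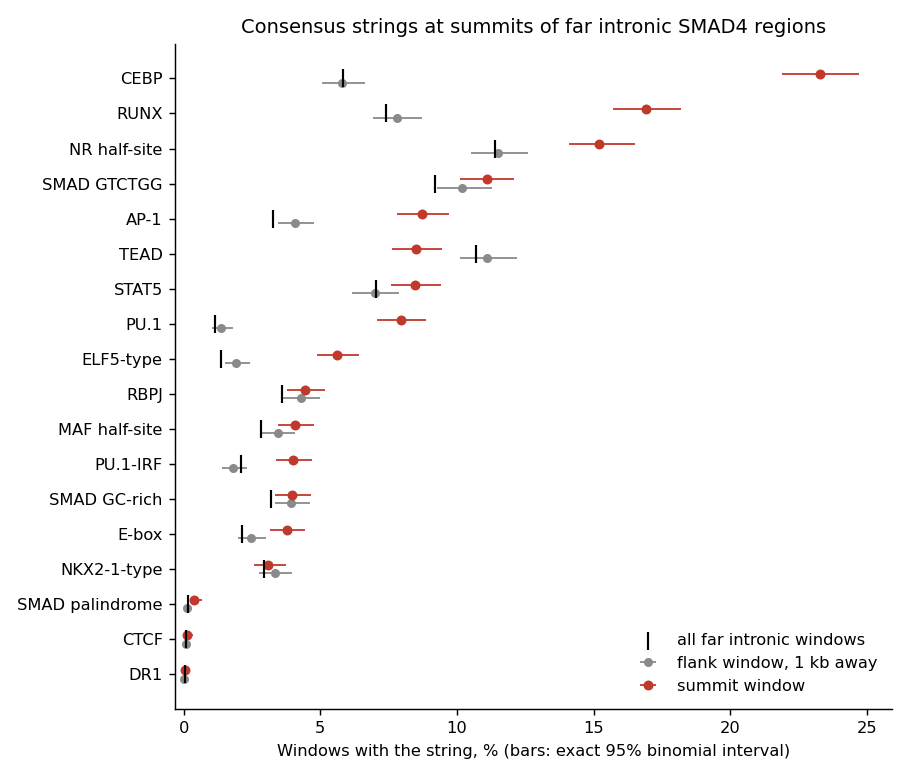
Percentage of windows with each of 18 consensus strings (x axis) in summit windows (red) and flank windows 1 kb away (grey) of the 3577 regions, with exact 95% binomial intervals, and in all tiled windows of far introns (black ticks). CEBP stood at 23.3% against 5.81%, whereas the intervals of SMAD GTCTGG at summits and flanks overlapped.

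The strings with an excess were concentrated at the summits. Within 20 bp of the summit, the mean share of regions with a CEBP string was 3.80% per 20-bp bin, compared with 0.544% per bin at 500 to 1000 bp, a ratio of 6.99. The same ratio was 6.39 for PU.1, 3.78 for ELF5-type, 3.18 for AP-1 and 2.24 for RUNX. For GTCTGG it was 1.02. Other open or bound regions of AMs were not counted, so whether the excess is particular to SMAD4 regions was not tested.

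**Figure D4:**
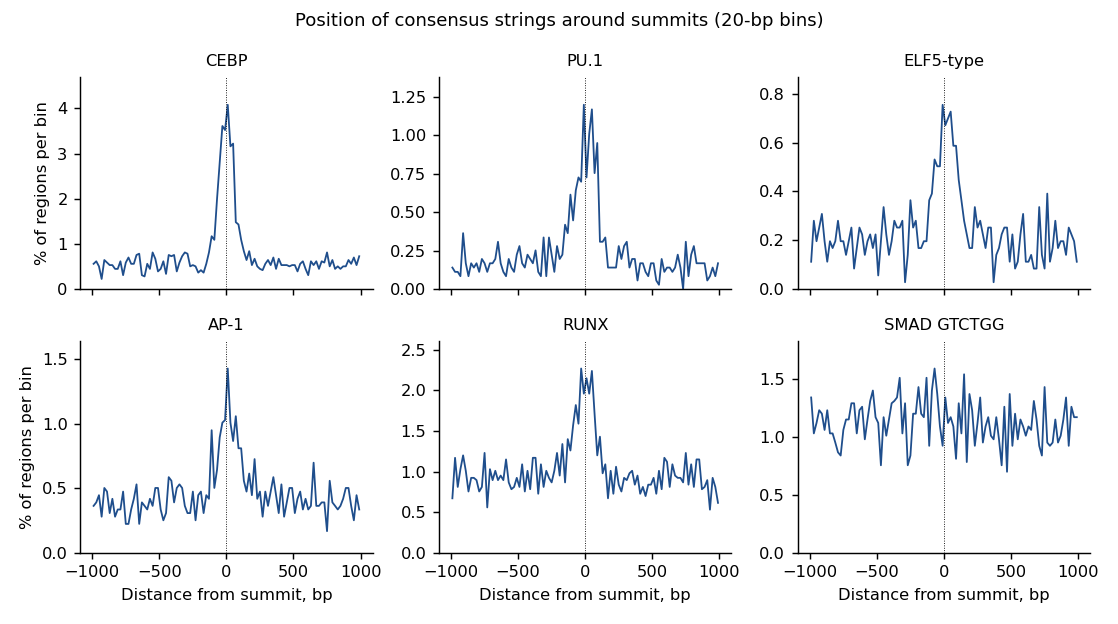
Percentage of far intronic regions with a string in each 20-bp bin (y axis) by distance from the summit in bp (x axis), for 6 strings on separate y axes that start at 0. CEBP rose from 0.544% in the outer bins to 4.08% in its highest bin, and GTCTGG had no central rise.

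The letters within the CEBP string were not equal. TTGCACAA or its reverse was found in 270 summit windows and 20 flank windows, a ratio of 13.5, and TTATGCAA in 171 and 22 (7.77). TTACACAA was found in 159 and 41, TTACATAA in 151 and 39, and TTACGCAA, which holds a CpG, in 46 and 2. In contrast TTATACAA was found in 32 summit and 42 flank windows, a ratio of 0.762, and TTATATAA in 25 and 28. All of these fit the string, so its ratio of 4 is an average over letters with a large excess and letters with none.

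The CEBP string was also the one that varied most with enrichment. When regions were split into 4 groups by the smaller of their folds, with cuts at 5.20, 6.5 and 9.75, CEBP strings were in 17.9% of the 1039 weakest regions (15.6 to 20.4), 23.2% and 23.3% of the middle groups and 29.8% of the 862 strongest (26.8 to 33.0). The strongest exceeded the weakest by 11.9 percentage points (Newcombe 95% interval 8.07 to 15.8). ELF5-type strings went the other way, from 6.74% to 4.52% (difference −2.21 points, −4.28 to −0.106). That interval ended close to 0, and the intervals of the 18 strings were not adjusted for their number. The interval of the same difference included 0 for the other 16 strings, among them PU.1 (−1.18, −3.58 to 1.28), AP-1 (−1.56, −4.14 to 1.07) and GTCTGG (0.940, −1.96 to 3.90). Median width rose from 301 bp in the weakest group to 698 bp in the strongest, and the share of windows masked as repeats in this way fell from 5.49% to 1.74%. The part of these in the CEBP difference was not tested.

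At least 1 of the 5 strings was present in 1820 summit windows (50.9%, 49.2 to 52.5), and 1757 regions held none. An ETS string, of either kind, was present in 474, and in 92 of these a CEBP string was present as well (2.57% of all regions). Regions with a CEBP string and no ETS string had median folds of 7.47 and 10.5, and those with an ETS string and no CEBP string had 6.17 and 9.02. Regions with none of the 5 strings were not weak as a group, with median folds of 6.56 and 9.39. An example is the region in Gpr141, an orphan receptor gene, with folds of 34.1 and 49.2.

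Few strings differed in frequency between far intronic regions and other classes of shared regions. Over all 10964 shared regions, the summit windows held CEBP in 23.6%, PU.1 in 8%, ELF5-type in 5.62%, AP-1 in 8.91%, RUNX in 16.3% and GTCTGG in 11.2%, close to the far intronic shares above. Of 54 differences (18 strings against introns within 10 kb, intergenic regions at 10 to 100 kb, and promoters), 5 had an interval that excluded 0, with no adjustment for their number, and none of the 5 was against intergenic regions. Compared with promoters, far intronic regions held RUNX strings more often (16.9% against 11.4%, difference 5.48 points, 2.66 to 7.96) and GGCGC (−13.9 points, −17.0 to −11.2) and the E-box (−2.70, −4.84 to −0.980) less often. Compared with nearer introns they held the half-site AGGTCA (2.10, 0.112 to 4) and the MAF half-site (1.25, 0.194 to 2.21) more often. The AGGTCA difference lost its call in 3 of 5 alternative settings (0.349 with 50 bp each side, 1.83 with 200 bp and 1.56 with the summits of replicate 1), and the MAF difference in 1 (0.679 with 50 bp), as did the E-box difference from promoters (−0.746 with 50 bp). For CEBP the difference was −1.41 points against nearer introns (−3.85 to 0.971), −0.681 against intergenic regions (−2.82 to 1.44) and 1.17 against promoters (−2.30 to 4.40), which bounds any difference at a few points without showing that the classes are alike.

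The regions were spread over 1758 host genes, of 12624 genes with far intronic sequence (13.9%). A single region was found in 997 of them, and 140 genes with 5 or more held 975 regions (27.3%). Genes with more far intronic sequence were hosts more often, from 2.19% of genes with up to 10 kb of it to 36.7% of genes with over 500 kb. Density had a different course, with 7.05 regions per Mb in genes with 50 to 100 kb and 1.35 in genes with over 500 kb. Protein-coding genes were hosts of 3406 regions (95.2%, 94.5 to 95.9), and their share of far intronic bases was not counted. Another shared region lay within 10 kb of 1668 regions (46.6%), close to the 45.4% of all shared regions.

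Lpp, which encodes a LIM domain protein of focal adhesions, held the most regions, 17 in 494 kb of far intron. Their folds ran from 4.87 to 29.9 in replicate 1 and from 5.44 to 47.4 in replicate 2. It was followed by Sgms1, a sphingomyelin synthase, and Trps1, a GATA-type repressor, with 16 each. Sgms1 had them in 212 kb, or 7.55 per 100 kb, and its strongest region (chr19:32223451-32224424) had folds of 22.7 and 35.6. Nsmce2 held 15, App, the amyloid precursor protein gene, 14, Akap13 and Nedd9 13 each, and Itpr2, an endoplasmic reticulum calcium channel, and Nfia 12 each. Nedd9, an adaptor in cell migration, was the densest of these at 9.09 per 100 kb. Its strongest region, in intron 1 (chr13:41473319-41474174), had folds of 22.4 and 31.0. The median folds of these 9 genes lay between 6.17 and 10.7 in replicate 1. The genes A930011G23Rik, Creb5, Dapk1, Itpr1 and Zfp608 came next, tied with 11 regions each.

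Genes of AM identity held more far intronic regions per Mb than genes as a whole. This list and those below were chosen with earlier results of these data known, so their densities are descriptions. The paper had already shown SMAD4 peaks from these data near Cdh1, Abca1 and Cd36. Of 30 listed genes, 17 had far intronic sequence. Of these 8 were hosts (47.1%, compared with 13.9% of all genes). They held 22 regions, a density of 33.5 per Mb compared with 4.76 for all genes. The 17 genes had 0.657 Mb of far intron. Of all genes with 10 to 50 kb of it each, 11% were hosts, at 6.28 per Mb. Between classes of all genes by length of far intron, density ran from 1.35 to 7.05 per Mb. Pparg, the nuclear receptor that drives AM differentiation, held 6. Its strongest, in intron 2 (chr6:115432294-115433052), had folds of 15.9 and 25.7, and another in intron 1 (chr6:115375274-115375836) had 13.0 and 13.5. The other 4 Pparg regions were weak, between 2.63-fold and 6.17-fold in replicate 1. Abca1, a cholesterol exporter, held 7, with 6 of them in intron 5, and the strongest (chr4:53120025-53120905) had folds of 22.1 and 35.6. Cdh1, which encodes E-cadherin, Cd36, a scavenger receptor for lipids, and Mrc1, the mannose receptor, held 2 each. Their strongest regions had folds of 11.4 and 17.1, 14.3 and 20.9, and 8.45 and 12.6. Olr1, Atp6v0d2 and Lima1 held 1 each.

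Macrophage transcription factor genes were hosts about as often, 12 of 24 (50%), compared with 13.9% of all genes. Their 55 regions made 25.1 per Mb, compared with 4.76 for all genes. The 24 genes had 2.19 Mb of far intron. Of all genes with 50 to 100 kb of it each, 26.2% were hosts, at 7.05 per Mb. In the list, all peaks of replicate 2 gave 89 at 40.6 per Mb, against 7.83 for all genes. Foxp1 held 10, Etv6 9, Runx1 8 and Runx2 7. In Runx1 the strongest region (chr16:92714749-92716034, intron 2) had folds of 20.8 and 37.5, and in Runx2 (chr17:44652786-44653814, intron 3) the folds were 21.1 and 32.0. Ikzf1, a lymphoid and myeloid zinc finger factor, had the strongest region of the list (chr11:11730000-11730816), with folds of 23.7 and 30.2. Mitf and Fli1 held 4 each, Tfec, Elf1 and Ikzf1 3 each, Tfeb 2, and Zeb2 and Nfkb1 1 each.

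Myeloid receptor and signalling genes had 18 hosts among 27 genes (66.7%), compared with 13.9% of all genes. Their 43 regions made 13.1 per Mb, compared with 4.76 for all genes. In the list, all peaks of replicate 2 gave 20.5 per Mb, against 7.83 for all genes. The 27 genes had 3.27 Mb of far intron. Of all genes with 100 to 200 kb of it each, 34.8% were hosts, at 6.40 per Mb. Syk, the kinase downstream of Fc and lectin receptors, held 4, with folds of 9.42, 9.75, 22.4 and 18.5 in replicate 1 and 15.8, 12.6, 27.1 and 23.9 in replicate 2. Mertk, a receptor for apoptotic cells, held 5, of which the strongest (chr2:128719290-128719707) had folds of 13.3 and 11.7. Arhgap15 had the highest smaller fold after Syk, with 22.1 and 31.6. Lysosome and lipid handling genes had the highest density, 38.6 per Mb, with 21 regions in 10 of 22 genes (45.5%, compared with 13.9% of all genes). Nceh1, a cholesteryl ester hydrolase, held 7 and Lrp1, an endocytic receptor, 5. The strongest regions here were in Scarb2, a lysosomal membrane protein gene, with folds of 20.8 and 26.6, and Acsl1, an acyl-CoA synthetase gene, with 17.9 and 33.5.

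Genes of the TGFβ and SMAD pathway itself were close to the level of all genes, without allowance for intron length. Of 31 with far intronic sequence 5 were hosts (16.1%), compared with 13.9% of all genes. They held 8 regions at 3.85 per Mb, compared with 4.76 for all genes. The 31 genes had 2.08 Mb of far intron. Of all genes with 50 to 100 kb of it each, 26.2% were hosts, at 7.05 per Mb. The order against all genes was not stable. Peaks of replicate 1 gave 5.30 against 6.96 per Mb and those of replicate 2 gave 8.19 against 7.83. Tgfbr2, the type II receptor, held 3 weak regions. Their folds were 4.87, 4.55 and 8.22 in replicate 1 and 5.41, 13.1 and 4.56 in replicate 2, and the replicates did not agree on which was the strongest. Ltbp1, which binds latent TGFβ, held 2, the stronger with folds of 12 and 20.8. The repressor genes Ski (6.5 and 15.8) and Skil (7.8 and 12.6) and the ubiquitin ligase gene Smurf1 (3.86 and 9) held 1 each. The list concerns far introns only, and regions of these genes at promoters or outside introns are not counted in it.

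Genes of other cell types differed from one another. Long neuronal genes had 0.410 regions per Mb of their 29.3 Mb of far intron, beside 1.35 in all genes with over 500 kb of it. Of the 20 genes 5 were hosts (25%), compared with 13.9% of all genes and 36.7% of genes with over 500 kb. Together they held 12 regions. Kcnip4, which encodes a potassium channel partner, had 5 of these, all in intron 1, with folds of 9.57 to 14.3 in replicate 1 and 14.7 to 26.2 in replicate 2, and Cntnap2 had one with folds of 20.3 and 41.1. All peaks of each list in far introns of the neuronal genes, with or without a partner, numbered 72 in replicate 1 and 50 in replicate 2. They made 2.46 and 1.71 per Mb, compared with 6.96 and 7.83 for all genes. Of these peaks 14 (19.4%, 11.1 to 30.5) and 13 (26.0%, 14.6 to 40.3) had a partner in the other list. Among all far intronic peaks the shares were 70.8% and 62.5%. Lung epithelial genes had 3 hosts among 9 (33.3%, compared with 13.9% of all genes), with 5 regions in 0.343 Mb of far intron. That made 14.6 per Mb, above the 4.76 of all genes and the 13.1 of the myeloid receptor and signalling list. Of all genes with 10 to 50 kb of far intron each, 11% were hosts, at 6.28 per Mb. A density above all genes was thus also seen in a list of other cell types, although it rests on 5 regions. Pdpn, a membrane protein of type I pneumocytes, held 3 of the 5. Gene lists were not tested against each other, and the lists were chosen with earlier results of these data known.

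**Figure D5:**
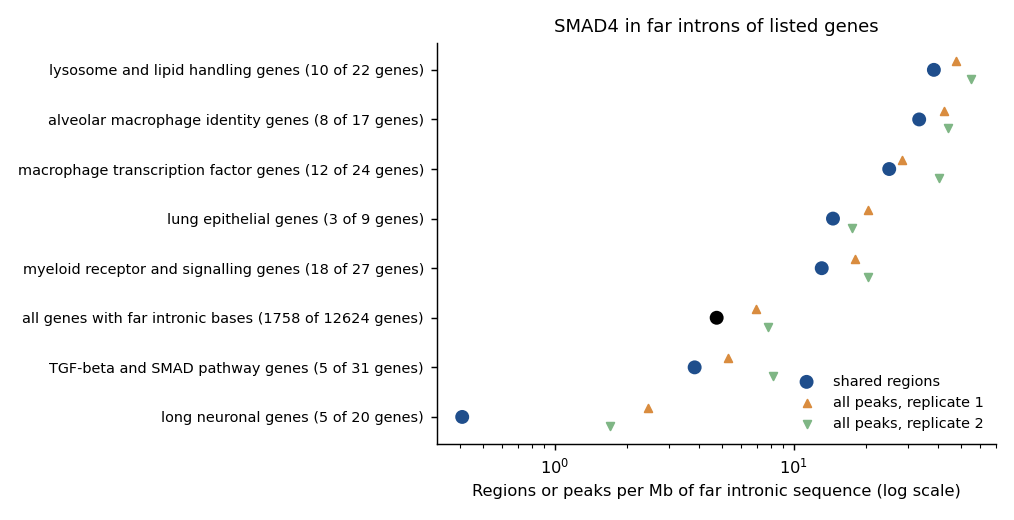
Shared SMAD4 regions (circles) and all peaks of replicate 1 (up triangles) and replicate 2 (down triangles) per Mb of far intronic sequence (x axis, log scale) for 7 gene lists and all genes (black), with the number of host genes in brackets. Lysosome and lipid handling genes (38.6 per Mb) and AM identity genes (33.5) lay highest and long neuronal genes (0.410) lowest.

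The host gene was not always the gene with the nearest TSS. The matching share of far intronic bases was not counted, so the numbers describe positions only. The nearest TSS belonged to the host for 2591 regions (72.4%, 70.9 to 73.9) and to another gene for 986. With predicted transcripts included, the share fell to 64.4%. Genes of the lists were the nearest other gene in some of these cases. The 2 regions in Usp32, a deubiquitinase gene, whose nearest TSS was that of Car4, an AM surface carbonic anhydrase, were among the stronger ones (chr11:85003276-85004117 with 30.9-fold and 42.9-fold, and chr11:84987984-84988679 with 19.2-fold and 27.5-fold). They lay 45943 bp and 30578 bp from it. The region in intron 9 of Vmp1, an autophagy gene (chr11:86603630-86604481, 33.1-fold and 55.5-fold), lay 19898 bp from the microRNA gene Mir21a. C2cd3 held 3 regions nearest to Ucp3, with folds of 15.9 and 24.8 at the strongest. Single regions in Wwox, Tmem236 and Itgam were nearest to Maf (8.77 and 14.4, at a distance of 430466 bp), Mrc1 (6.5 and 13.1) and Itgax (6.17 and 7.67). Genes of the epithelial and TGFβ lists were nearest as well. In Arid5b 2 regions were nearest to Rtkn2 (8.45 and 14.4, and 6.82 and 5.44), 2 in Ahnak to Scgb1a1 (5.52 and 5.87, and 5.28 and 6.94), 1 in Pdlim5 to Bmpr1b (6.17 and 8.12) and 1 in Ttll5 to Tgfb3 (4.87 and 4.06). The data do not say which of these genes a region acts on.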

How the data were processed

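SMAD4 HT-ChIPmentation peak lists of 2 AM samples were used, and the 2 input samples had no file of their own. Per the labels and the study's methods, the authors used Cutadapt for trimming, Bowtie2 for alignment to mm10, SAMtools to keep reads of high mapping quality and MACS3 to call peaks per sample (q-value under 0.05, input as control). The deposited columns hold a score, the fold ratio of pileup over control, and −log10 p-values and −log10 q-values. Pileup and control level were solved from fold and p, since sequencing totals were not used here. All solved pileups lay within 0.00138 fragments of a whole number.

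Regions were annotated with 45657 curated RefSeq transcripts of 26089 genes (GRCm38). A region in several transcripts was given the intron of the longest. Base rates were counted over all far intronic bases and windows, not sampled. Exact McNemar tests (two-sided) served for strings, and shares by Clopper-Pearson and Newcombe 95% intervals. Python 3.11.15 was used with pysam 0.24.0, scipy 1.17.1, pandas 2.3.3 and numpy 2.4.6, and scripts were tested on simulated data. Alternatives were other overlap, q, fold, distance, window, flank and annotation settings and each replicate alone. Named genes are the 25 regions with the largest smaller fold, the 10 hosts with the most regions (and ties), and list genes by their strongest region, with 1 of the 25 not reported here. Other regions are examples chosen after their values were seen. The members and lists were chosen with earlier results of these data known.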

Additional observations from a re-analysis of the deposited data

How the results depend on the processing

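Results were recomputed under 246 combinations of a result and an alternative, and no result past its threshold, in either setting, changed direction. Some differences between classes whose intervals included 0 changed sign, such as AP-1 against introns within 10 kb (−0.601 points, and 0.394 with the summits of replicate 2). The number of far intronic regions was 2940 with a 50% reciprocal overlap, 2728 with at least 5-fold enrichment in both lists, 3065 with predicted transcripts, 4283 and 2541 with distance limits of 5 and 20 kb, and 5225 to 5882 when each replicate was used alone. Of the strings, 7 to 11 were more frequent at summits, against 9 in the report. STAT5 lost its call in 4 of 7 alternatives, and the E-box and TEAD in 1 each. The mean share of peaks with a partner was 53.2% with a 50% reciprocal overlap. The share in first introns was 32.3% with the shortest transcript, 27.7% with predicted transcripts and 27.8% to 28.8% with each replicate alone, and the share with the nearest TSS in the host was 64.4% with predicted transcripts. The number of string differences between classes with an interval excluding 0 was 3 with windows of 50 bp each side, 8 with 200 bp, 9 with at least 5-fold enrichment and 7 to 8 with each replicate's summits, so that single differences there are unstable, whereas GGCGC and RUNX against promoters kept their call in all 5 settings. The share of genes that were hosts was 11.9% with at least 5-fold enrichment, 14.7% among protein-coding genes and 18.5% to 19.7% with each replicate alone. The causes were not tested. No paired analysis was possible because replicates were numbered by accession and formed only 1 group. With 2 samples, and 21 fragments at the median summit, differences in binding at single regions between the replicates cannot be resolved.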

Other observations

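Some hosts were compact genes with regions packed closely. Among genes with at least 5 regions, the densest was Ifitm10, of the interferon-induced transmembrane family, with 5 in 31.9 kb of far intron (15.7 per 100 kb), the strongest in intron 3 with folds of 13.3 and 27.1. Abcd2, a peroxisomal fatty acid transporter, had 5 in 32.0 kb, and its strongest region (chr15:91171913-91173517) reached 27.9-fold in replicate 1 and 48.3-fold in replicate 2. Irak2, a kinase of Toll-like receptor signalling, had 5 in 37.4 kb with median folds of 11.7 and 15.8. Sgms2, the second sphingomyelin synthase besides Sgms1, had 6 in 45.4 kb, with folds of 22.7 and 42.4 at the strongest. Lcp1, which encodes the leukocyte actin-bundling protein L-plastin, had all 9 of its regions in intron 1. Their folds ran from 5.52 to 28.9 in replicate 1 and from 7.22 to 35.6 in replicate 2, and the strongest lay at chr14:75180320-75181337. Gnptab, which adds the tag that sends enzymes to lysosomes, had 6 in 53.0 kb, of which one was strong (23.4-fold and 30.2-fold), and the medians were 4.39 and 6.18. Pdcd1lg2, the gene of the checkpoint ligand PD-L2, had 5 in 48.8 kb, with folds of 22.7 and 32.9 at the strongest.

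The share of far intronic peaks with a partner differed with the length of the host gene. In genes with over 500 kb of far intron, 208 of 510 peaks of replicate 1 had a partner (40.8%, 36.5 to 45.2) and 213 of 433 of replicate 2 (49.2%, 44.4 to 54). In genes with 50 to 100 kb the shares were 76.6% (74.1 to 78.9) and 65.4% (62.9 to 67.9). Median folds of the peaks moved with it, at 4.77 against 5.85 in replicate 1 and 5.86 against 7.22 in replicate 2, and their part in the difference was not tested.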
